A study of Mus musculus with 8 samples.

Results

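Cholecystokinin (Cck), the gut hormones gastrin (Gast), GIP (Gip), secretin (Sct), neurotensin (Nts) and VIP (Vip), and the receptors Cckar, Cckbr and Sctr were read in whole pancreas of mice aged 1 week. These 9 genes were found by the gene name that the array files give to each non-control probe, out of 19505 named genes on the array. They were read by 11 of 41174 probes, with 2 probes each for Cck and Cckbr and 1 for each other gene. The members were chosen by name around Cck. Cck itself was selected on its processed signal in Glis3KO2 against WT, which was known from earlier results of these arrays. The differences between genotypes below are therefore descriptions of the members. Where their calls in the fit over all genes are listed, those calls are no evidence for a difference.

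The groups were 4 WT and 4 Glis3KO2 samples, all on the C57BL/6 strain. Pups had been kept with their own mothers, and no treatment is named. Glis3 is a zinc finger transcription factor needed for pancreatic beta cells to develop, and the series title asks what it does in their development and maturation. The labels call the mutant Glis3KO2 without stating which part of the gene was deleted or whether the pups of a genotype came from separate litters. P-values below therefore measure the spread between these 8 samples.

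Cholecystokinin is released into the blood by scattered endocrine cells of the upper intestine after a meal of fat or protein, and it is also a transmitter in brain and nerves. In the rodent pancreas it acts through Cckar on acinar cells, which release digestive enzymes. Gastrin, made in the stomach and for a short time in fetal islets, shares its active C-terminal end with cholecystokinin, and both bind Cckbr. Secretin acts through Sctr on duct cells, which then secrete bicarbonate, while GIP acts on beta cells, and VIP and neurotensin are peptides of nerves and of gut endocrine cells.

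The Cck probes are shown first because they gave different answers. Both are 60 bases long and lie on the minus strand of chromosome 9, with starts 3483 bases apart in build mm7, the build the array files give. The probe named A_51_P137322 lies at chr9:121192651-121192710, and A_52_P539124 lies upstream of it at chr9:121196134-121196193. Which exon or intron each lies in was not determined here. The first 30 bases of each read, 5′ to 3′, with no letters marked:
Cck A_51_P137322: atttattaagtccccaatgtgaaatctgtc
Cck A_52_P539124: ctttctgtggagctcacgaacccaattttt

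The probes of Gip and Nts are shown whole because they read the coding part of peptides that the text returns to. The Gip probe aligns to chr11:96134470-96135691, a span of 1222 bases for 60 bases of probe, so that it crosses an intron. The Nts probe lies at chr10:101968978-101969037, and the capitals mark the codons, bases 39 to 44, of the pair of basic residues at which the neurotensin precursor is cut.
Gip A_52_P313098: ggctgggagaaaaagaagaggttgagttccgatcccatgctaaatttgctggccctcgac
Nts A_51_P485756: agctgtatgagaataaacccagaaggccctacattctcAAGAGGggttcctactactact

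The 250 bases before the annotated start of Cck are shown because the gene differed most of the set. They come from RefSeq (build GRCm38.p6, chr9:121495695-121495944, minus strand), and 7 of the 9 genes had such a window. The capitals mark an E-box (CACGTG, at -66 to -61 from the start) and a CRE-like element (TGCGTCA, at -49 to -43), the kind of sites bound by basic helix-loop-helix and CREB-type factors.
Cck promoter: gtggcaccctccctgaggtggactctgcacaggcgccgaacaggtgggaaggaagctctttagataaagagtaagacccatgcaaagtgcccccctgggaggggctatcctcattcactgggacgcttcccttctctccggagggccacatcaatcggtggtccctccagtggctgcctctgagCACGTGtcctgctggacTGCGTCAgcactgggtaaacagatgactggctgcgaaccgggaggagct

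Counted on both strands over windows from 250 bases before to 50 after each start, 7.15% of 32817 promoters held CACGTG, those of Cck and Cckbr among them, and 2.11% held TGCGTCA. The full CRE, TGACGTCA, was in 1.79% of promoters and in none of the 7. Its short core TGACG, which overlaps TGCGTCA on the other strand, was found in 20.8% of promoters and in those of Cck, Nts and Vip. The letters of a GLI-type site, GACCACCCA, were found in 0.253% of promoters and of a G-rich GLIS site, TGGGGGGT, in 1.52%, and neither was in the window of any of the 7 genes. A match is a run of letters and not a measured binding site, and its absence says only that these letters are not in that window.

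Levels are given as log2 of the processed spot signal relative to the 75th percentile of the same array, so that 0 is the brightness of that percentile. The scanner software called 31362 to 35622 probes of an array well above background, that is, brighter than their surroundings. Each genotype filled a slide of its own, and for every difference given here the slide and the genotype cannot be told apart. The single Glis3 probe was dim, at -6.06 to -5.35 in WT and -6.43 to -5.93 in Glis3KO2, and stood over background on 3 WT and 0 Glis3KO2 arrays; whether it lies in the deleted part is not given, so it does not check the genotype. Xist, which female cells make from their silenced X, was high on WT replicate 4 and on Glis3KO2 replicates 1, 3 and 4, so both sexes were present. The sexes were thus unevenly split between the genotypes, and the part of sex in the differences below was not tested. Marker lists for the pancreas were present, with all 12 acinar, all 8 duct and all 8 beta cell markers well above background on every array. In bulk tissue, fewer cells of a type and less RNA per cell cannot be told apart.

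Cck was far brighter in Glis3KO2 pancreas by the probe A_51_P137322, and it varied widely among the Glis3KO2 mice. Its processed signal was 31.3, 29.0, 28.6 and 38.8 for WT replicates 1 to 4. For Glis3KO2 it was 1453, 292, 447 and 1915. Every Glis3KO2 array was above every WT array, and replicates 1 and 4 were far above replicates 2 and 3. On the log2 scale the WT levels were -3.99, -3.99, -4.20 and -3.70, and the Glis3KO2 levels were 1.65, -0.95, -0.63 and 1.81. WT averaged -3.97 ± 0.21 and Glis3KO2 0.47 ± 1.46 (SD, n = 4 each), which gave a log2 difference of 4.44 (SE 0.61), or 21.7-fold. A single fold hides the spread, since replicates 1 to 4 stood 49.3-, 8.10-, 10.1- and 54.9-fold above the WT mean.

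The WT signals of this probe were well above background on all 4 arrays but close to the floor of the scanner, so the size of the fold depends on how background is removed. With normexp background correction, which adds an offset of 50 to every spot and so shrinks the differences of dim probes, the log2 difference was 3.1. On that scale Glis3KO2 replicates 1 to 4 were 18.7-, 3.48-, 4.09- and 20.4-fold above the WT mean. The order of the Glis3KO2 arrays and the gap between genotypes were present under both settings.

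The upstream Cck probe, A_52_P539124, did not show the difference, but it was close to the floor of the scanner in both genotypes. Its processed signal ran from 24.9 to 44.9 in WT and from 34.8 to 60.6 in Glis3KO2. Whether this probe reads the Cck transcript as well as the other was not tested. Its log2 levels were -3.47, -3.84, -4.41 and -3.77 for WT (replicates 1 to 4) and -2.93, -4.02, -3.94 and -3.52 for Glis3KO2, in the same order. The groups overlapped, and only Glis3KO2 replicate 1 was above all WT arrays. The log2 difference was 0.27 (SE 0.27), and 0.03 with normexp background. The probes of this gene therefore disagree, and the account of Cck rests on A_51_P137322 alone. Replicates 1 and 4 were again the higher Glis3KO2 arrays on both Cck probes.

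**Figure D1:**
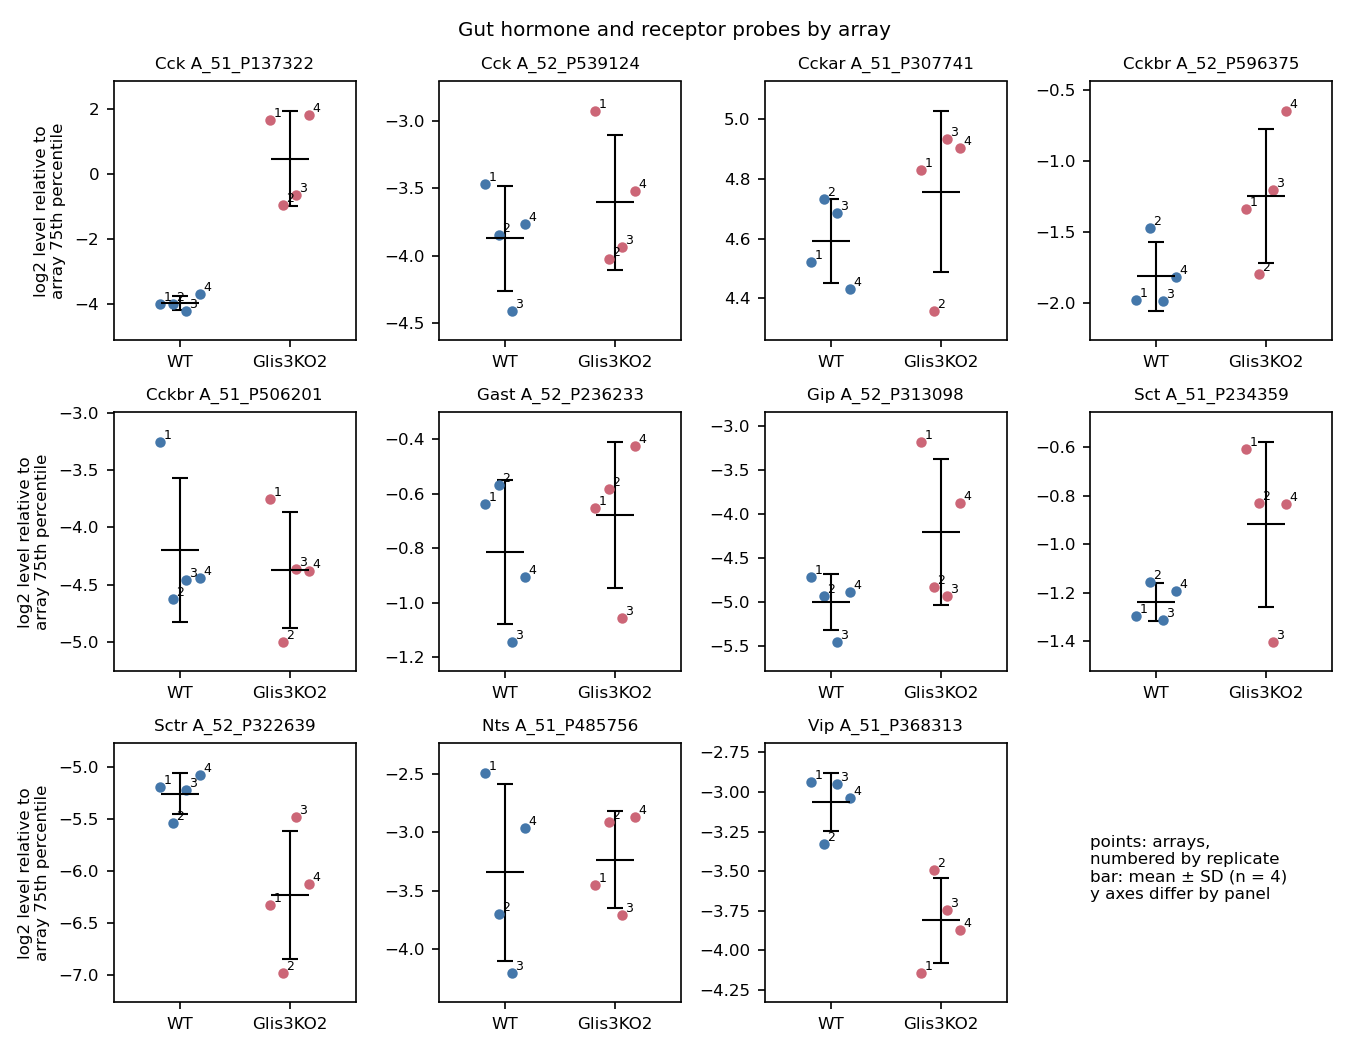
Log2 level relative to the array's 75th percentile (y axis, scaled for each panel) for each of the 11 probes in WT and Glis3KO2; points are arrays numbered by replicate, and bars give the mean ± SD of 4 arrays. The Cck probe A_51_P137322 has all Glis3KO2 arrays above all WT arrays, with replicates 1 and 4 at 1.65 and 1.81 and replicates 2 and 3 at -0.95 and -0.63, while the other Cck probe overlaps between the groups.

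The spread of this Cck probe among Glis3KO2 arrays was in the upper tail of all probes. Its highest Glis3KO2 array was 6.78-fold above its lowest, against 1.42-fold among WT arrays. The Glis3KO2 SD of 1.46 was above that of 99.6% of the 33253 tested probes, whose median was 0.22, and the WT SD of 0.21 was above that of 62.8%, with a median of 0.17. The Glis3KO2 arrays were the more variable in general, with the larger SD for 65.8% of tested probes and for 9 of the 11 probes of the set. Among the other members, Gip had the widest Glis3KO2 spread, with an SD of 0.83 (97.3% of probes were below it).

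**Figure D2:**
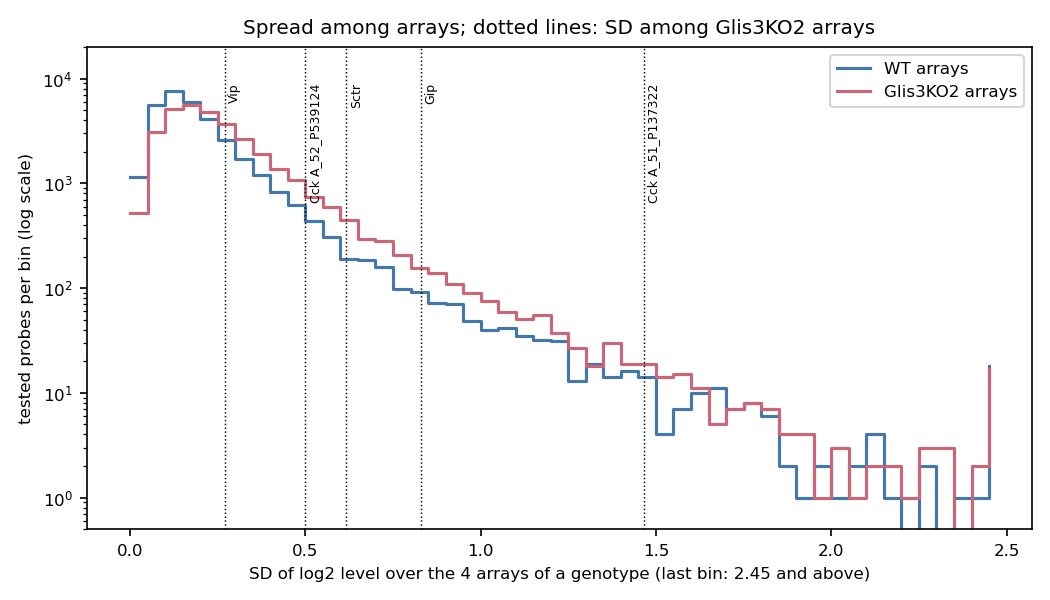
Number of tested probes (y axis, log scale) by the SD of their log2 level over the 4 arrays of a genotype (x axis, bins of 0.05), for WT and Glis3KO2; dotted lines give the Glis3KO2 SD of 5 probes of the set. The Cck probe A_51_P137322, at 1.46, lies in the far right tail, and Gip, at 0.83, lies between it and Vip, at 0.27.

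Library properties were set beside the Cck levels. Glis3KO2 replicates 3 and 4 stood apart on the first principal component, at 39.8 and 59.0, with replicates 1 and 2 at 0.38 and -13.0 and the WT arrays between -25.9 and -15.4. Cck did not follow that order, since replicate 1 was high and replicate 3 low. The summed level of the 8 beta cell markers was 396, 214, 194 and 192 on Glis3KO2 replicates 1 to 4 and 732 to 903 in WT. The brightest of them was Ins2 on the WT arrays but Iapp on the Glis3KO2 arrays, where Iapp was not lower. Log2 levels of Iapp were 8.17, 6.98, 6.84 and 7.09 on Glis3KO2 replicates 1 to 4 and 6.57 to 6.99 in WT. Those of Ins2 were 5.83, 5.31, 5.26 and 4.67 against 8.77 to 9.07, so the mutant sums do not rank beta cell content. Sums over markers of gut lining were each carried by 1 gene. The summed level of 15 intestinal markers was 3.67, 3.09, 3.62 and 3.85 on Glis3KO2 replicates 1 to 4 and 3.14 to 3.65 in WT, and Vil1, villin of brush borders, made up 47.4% to 65.1% of it. Without Vil1, a split made after seeing the values, the other 14 summed to 1.79, 1.62, 1.31 and 1.35 on the same arrays and to 1.27 to 1.49 in WT, so that replicates 1 and 2 were above the WT range and replicate 4 was within it. The 7 stomach markers summed to 167, 140, 144 and 180 on the Glis3KO2 arrays and to 133 to 178 in WT, mostly from Tff2. Without Tff2, also a split made after seeing the values, the other 6 summed to 0.575, 0.419, 0.378 and 0.454, against 0.347 to 0.380 in WT. Replicates 1 and 4 were again the highest. Of these 6, Gkn1 was well above background on only 1 WT and 1 Glis3KO2 array, and Gkn2 on only 2 Glis3KO2 arrays. The defining intestinal genes Cdx2 and Cdh17 were not well above background on any array and Cdx1 was so on 1, while 11 of the 16 intestinal markers were on all 8. Krt20 was left out of the sum because it was flagged as an outlier on Glis3KO2 replicate 4. It was by far the brightest of the 16 intestinal markers where it was read. Its log2 levels were 5.37 to 5.59 in WT and 5.43, 5.44 and 5.80 on Glis3KO2 replicates 1 to 3. Vil1, the brightest of the 15 summed, was at 0.72 to 1.25 in WT, so the sum describes the list without its main gene. The part of these markers in the Cck levels was not tested.

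Gip, the incretin of intestinal K cells, had its highest levels on the same Glis3KO2 arrays as Cck. Its levels were -4.72, -4.93, -5.45 and -4.89 for WT (replicates 1 to 4) and -3.19, -4.83, -4.94 and -3.88 for Glis3KO2, in the same order. Replicates 1 and 4 were above all WT arrays, while replicates 2 and 3 lay within the WT range. Over the 4 arrays a genotype, Gip had a log2 difference of 0.79 (SE 0.37), and of 0.12 with normexp background. Its unscaled processed signal ran from 12.1 to 18.9 in WT and from 19.9 to 50.6 in Glis3KO2.

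The genes whose profile over the 8 arrays lay nearest to that of Cck were then read, by the root mean square difference between log2 profiles that were each centred on their own mean. The nearest of 17317 genes was Pdyn, which encodes the opioid precursor prodynorphin, at 0.61 log2 units, where the median gene lay at 2.38. St8sia3, a sialyltransferase, followed at 1.20, then Onecut2, a homeobox factor, at 1.34, Reg3b, a secreted lectin of stressed acinar cells, at 1.34, and 1600029I14Rik at 1.38. Since these profiles are dominated by the step between genotypes, nearness over 8 arrays describes that step first.

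Within the mutant arrays the neighbours fell into different patterns. Relative to its WT mean, Pdyn stood at 6.21, 4.05, 4.25 and 4.86 on Glis3KO2 replicates 1 to 4, against 5.62, 3.02, 3.34 and 5.78 for Cck. Reg3b stood at 2.25, 0.85, 1.37 and 3.07 and 1600029I14Rik at 3.07, 1.20, 1.34 and 2.15. These 3 genes had replicates 1 and 4 above replicates 2 and 3, an order that the choice by nearness to Cck, which used the same arrays, partly fixes. St8sia3, at 2.56 to 2.89, and Onecut2, at 2.43 to 2.74, were nearly level across the 4 arrays. With 4 arrays no correlation within the mutant was computed.

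**Figure D3:**
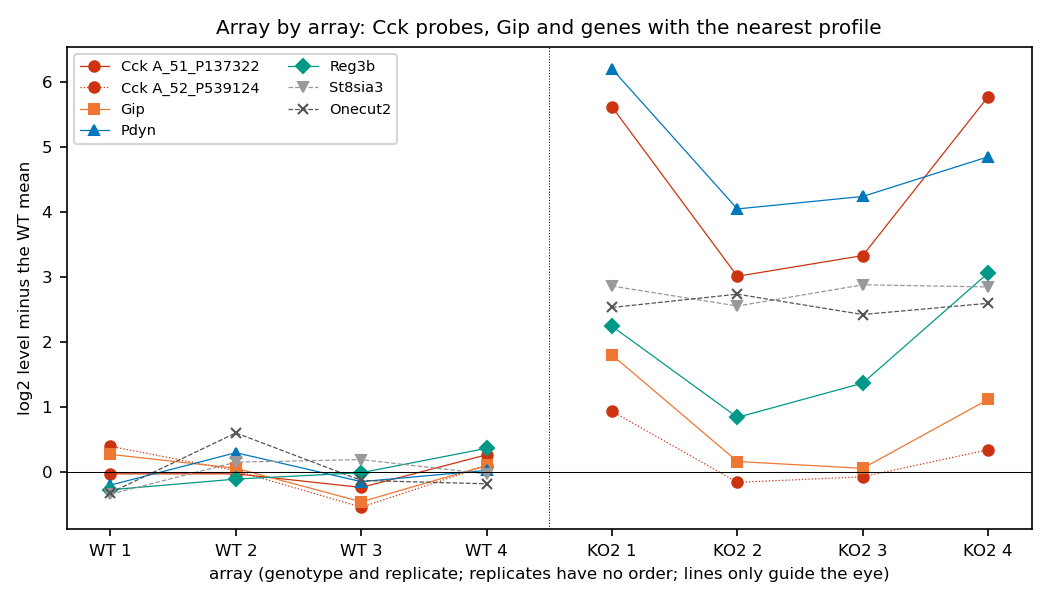
Log2 level minus the WT mean (y axis) on each of the 8 arrays (x axis) for both Cck probes, Gip, and 4 of the 5 genes with the nearest profile. Cck A_51_P137322, Pdyn, Reg3b and Gip are higher on Glis3KO2 replicates 1 and 4 than on 2 and 3, while St8sia3 and Onecut2 stay between 2.43 and 2.89.

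Of the receptors of cholecystokinin, Cckar overlapped between the genotypes in part, and the probes of Cckbr went different ways. Cckar, the receptor on rodent acinar cells, is read by a probe at chr5:53072113-53072172 and was bright on every array. Its levels were 4.52, 4.73, 4.69 and 4.43 for WT (replicates 1 to 4) and 4.83, 4.36, 4.93 and 4.90 for Glis3KO2, in the same order. Glis3KO2 replicates 1, 3 and 4 were above all WT arrays and replicate 2 was below all of them. This left a log2 difference of 0.16 (SE 0.15). The 12 acinar markers summed to 4428 to 5152 in WT and 3815 to 5063 in Glis3KO2.

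Cckbr, which binds both cholecystokinin and gastrin, was read by 2 probes on chromosome 7 that differ in sign. A_52_P596375, at chr7:101492488-101492547, was at -1.98, -1.47, -1.98 and -1.82 for WT (replicates 1 to 4) and at -1.33, -1.79, -1.20 and -0.65 for Glis3KO2, in the same order. Glis3KO2 replicates 1, 3 and 4 were above all WT arrays, and replicate 2 lay within their range. By this probe Cckbr had a log2 difference of 0.57 (SE 0.23), and of 0.41 with normexp background. A_51_P506201, at chr7:101490234-101490453 and across an intron, had a log2 difference of -0.17 (SE 0.34), which turned positive without WT replicate 1 (0.14) or without Glis3KO2 replicate 2 (0.03). Its WT replicate 1, at -3.26, lay far above the other WT arrays, at -4.63 to -4.44.

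Gast, read by a probe at chr11:100445531-100445590, was at the same level in both genotypes within their spread. Its levels ran from -1.14 to -0.57 in WT and from -1.06 to -0.43 in Glis3KO2, with a log2 difference of 0.13 (SE 0.17). The gastrin gene therefore did not share the difference seen for Cck, whose product it resembles.

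Secretin was higher on 3 of the 4 Glis3KO2 arrays than on any WT array, and its receptor was close to the floor of the scanner in both genotypes. Sct, at chr7:137695602-137695661, stood at -1.30, -1.16, -1.31 and -1.19 for WT (replicates 1 to 4) and at -0.61, -0.83, -1.40 and -0.83 for Glis3KO2, in the same order. Replicates 1, 2 and 4 were above all WT arrays, replicate 3 was below them, and the log2 difference was 0.32 (SE 0.16).

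Sctr, read by a probe at chr1:119920707-119921809 that crosses an intron, passed the background call on 4 WT arrays but on only 1 Glis3KO2 array. Its levels were -5.19, -5.53, -5.21 and -5.08 for WT (replicates 1 to 4) and -6.33, -6.98, -5.48 and -6.12 for Glis3KO2, in the same order. Replicate 3 lay within the WT range and the others below it. The unscaled processed signal of Sctr ran from 9.93 to 14.9 in WT and from 4.49 to 15.5 in Glis3KO2. The probe met the filter through its WT arrays, and 3 of its 4 Glis3KO2 values are not above background. Its log2 difference of -0.97, or -0.29 with normexp background, is therefore no measured size. Markers of duct cells, the cells that secretin acts on, summed to 120 to 165 in WT and 141 to 176 in Glis3KO2.

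The nerve peptides differed from each other. Vip, at chr10:4699488-4699547, was lower on every Glis3KO2 array than on any WT array. Its levels were -2.94, -3.33, -2.95 and -3.04 for WT (replicates 1 to 4) and -4.14, -3.49, -3.74 and -3.87 for Glis3KO2, in the same order. The log2 difference was -0.75 (SE 0.16), or 1.68-fold lower, and -0.35 with normexp background. The 17 markers of peripheral neurons, 15 of them well above background on all 8 arrays, had a summed level of 7.46, 7.23, 8.05 and 8.57 for WT (replicates 1 to 4) and 7.54, 6.85, 5.87 and 5.65 for Glis3KO2, in the same order, and their part in the Vip difference was not tested. The sum leans most on Uchl1, the brightest of the 17 on every array, and no sum without it was made. Log2 levels of Uchl1 were 1.96, 1.89, 2.05 and 2.20 for WT (replicates 1 to 4) and 2.05, 1.92, 1.71 and 1.64 for Glis3KO2.

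Nts overlapped widely between genotypes. The probe over the neurotensin peptide gave -2.50, -3.70, -4.20 and -2.97 for WT (replicates 1 to 4) and -3.46, -2.91, -3.71 and -2.86 for Glis3KO2, in the same order. The WT spread (SD 0.76) was the wider. The log2 difference of 0.11 (SE 0.36) is smaller than either SD and was -0.02 with normexp background.

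**Figure D4:**
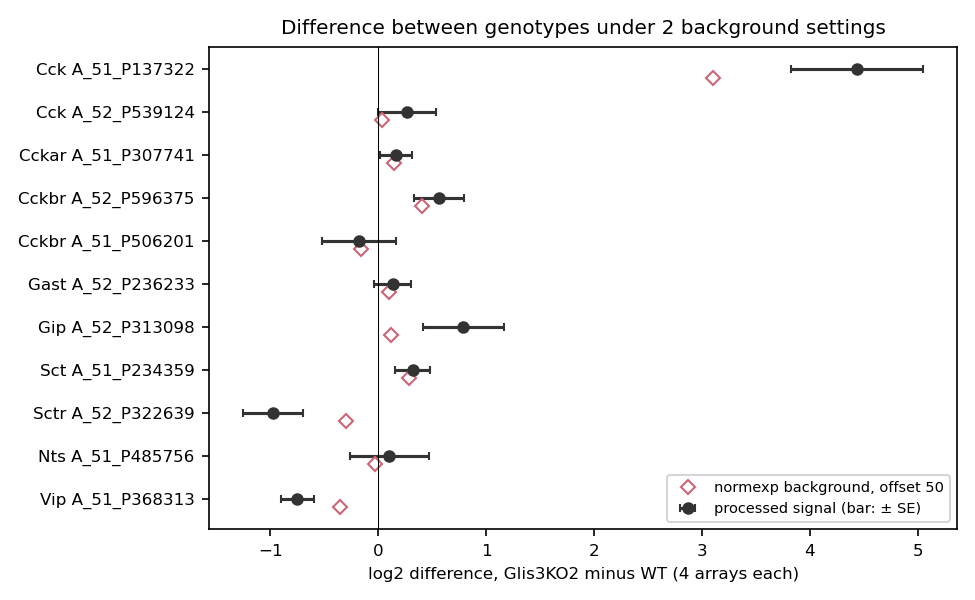
Log2 difference, Glis3KO2 minus WT (x axis, 4 arrays each), for the 11 probes (y axis); filled points with bars give the processed signal ± SE, and open diamonds the same difference with normexp background and an offset of 50. Cck A_51_P137322 stands at 4.44 and 3.1, and every other probe lies between -0.97 and 0.79 on the processed signal.

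All 11 probes had the brightness over background on 4 or more of the 8 arrays that the fit over all genes asked for, and 10 had it on all 8. In that fit (limma, Benjamini-Hochberg adjustment over 33253 probes) 1 of the 11, Cck A_51_P137322, passed an adjusted p of 0.05. Over all probes 0.256% passed, 0.0812% as higher in Glis3KO2 and 0.174% as lower. Nothing is read from that count or from the Cck call, since the set was drawn up with the result known. The call ended when any 1 of the 4 WT arrays or Glis3KO2 replicate 4 was left out, although the log2 difference then stayed between 3.99 and 4.53. Groups that did not overlap were found for 2 of the 11 probes, Cck and Vip, against 5.2% of all tested probes. Of the 11 differences 8 were positive and 3 negative, with a median of 0.16 where the median of all tested probes was -0.0088. That tally counts Sctr, whose difference is no measured size. It also counts Nts and Cckbr A_51_P506201, whose signs turned under some settings, so no lean of the set is read from it.

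The genes around this system were read from 6 lists of 129 genes on the array, of which 123 were tested, each by its brightest probe. A single gene passed the threshold, so that 0 rose and 1 fell (0.813%, where 0.375% of all tested genes passed limma). At an unadjusted limma p under 0.05 the count was 25 of 123, a larger share than the 8.20% of all tested genes, and most were lower. That 8.20% is also the share to set beside the unadjusted counts of each list below. The lists were chosen with earlier results of these data known. The lists include genes of islet cells, and of the 8 beta cell markers 5 passed the threshold as lower (Ins1, Ins2, Nkx6-1, Slc2a2 and G6pc2).

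Among 15 other gut and islet peptides, 0 rose, 1 fell and 14 did not pass. The one that fell was Ppy, pancreatic polypeptide, from 2.95 ± 0.34 to 0.93 ± 0.35 (SD, n = 4 each), a log2 difference of -2.01 (SE 0.21, limma adjusted p = 0.0065). This call ended without Glis3KO2 replicates 3 and 4 together, where the difference was -1.74. Pyy, peptide YY of gut and islet endocrine cells, had a difference of -0.18 (SE 0.11), and Gcg, which encodes glucagon and GLP-1, of -0.46 (SE 0.16). The list had 5 positive and 10 negative differences and a median of -0.21, against 0.01 for all tested genes. At an unadjusted limma p under 0.05 there were 6, all lower. Groups did not overlap for 5 genes of the list, where the share over all tested probes was 5.2%. Among these were Sst, at -0.72 (SE 0.16), and Ghrl, at -0.73 (SE 0.13), which did not pass the threshold.

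None of 23 other receptors for gut peptides passed the limma threshold, and 2 had an unadjusted p under 0.05, both lower. Gipr, the receptor through which GIP acts on beta cells, had the most negative difference of the list. Its levels were -1.44, -1.51, -0.74 and -0.81 for WT (replicates 1 to 4) and -2.59, -2.78, -1.98 and -3.52 for Glis3KO2, in the same order, so the groups did not overlap. The log2 difference was -1.59 (SE 0.32, limma adjusted p = 0.129), and its other tested probes were also negative. With normexp background it passed the threshold at -1.10. Glp1r, the GLP-1 receptor of beta cells, had a difference of -0.57 (SE 0.22). The VIP receptors Vipr1 and Vipr2 had differences of 0.04 (SE 0.14) and -0.68 (SE 0.39), and a further Vipr2 probe of 0.17.

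Among the enzymes that turn a prohormone into an active peptide, the largest difference by the brightest probe of each gene was that of the convertase Pcsk1. Of 13 processing genes 0 passed the limma threshold, and 3 had an unadjusted p under 0.05. Pcsk1, a convertase that cuts prohormones at basic pairs, had a log2 difference of 0.66 (SE 0.17, limma adjusted p = 0.279), with 0.78 to 1.27 in WT and 1.41 to 2.09 in Glis3KO2 and no overlap. A further Pcsk1 probe had a difference of 0.64. The convertase Pcsk2 had -0.17 (SE 0.18), with -0.45 from a further probe. Pcsk1n, an inhibitor of Pcsk1, had -0.45 (SE 0.18), with -0.59 and -0.67 from further probes. The carboxypeptidase Cpe, at 4.32 in both genotypes, the amidating enzyme Pam, at 0.03 (SE 0.13, with 0.14 and -0.27 from further probes), and the tyrosine sulfotransferases Tpst1 and Tpst2, at 0.06 (SE 0.10) and -0.04 (SE 0.11), had differences no larger than their errors by the probes used. Sulfation by the last of these gives cholecystokinin its affinity for Cckar.

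Signalling genes downstream of the receptors did not pass either. Of 31 genes on the path from Cckar to calcium release and granule exocytosis, 0 passed the limma threshold and 6 had an unadjusted p under 0.05, all lower. They include Itpr3, an inositol trisphosphate receptor of acinar cells, with a difference of -0.34 (SE 0.10) and no overlap between groups, and Plcb4, a phospholipase, with -0.71 (SE 0.21). Gnaq, the G protein to which Cckar couples, had a difference of 0.02 (SE 0.11). Of 24 genes of secretin signalling and bicarbonate secretion, 0 passed and 4 had an unadjusted p under 0.05. Kcnn4, a calcium-activated potassium channel, was at 0.17 to 0.68 in WT and -0.67 to -0.38 in Glis3KO2, a log2 difference of -0.87 (SE 0.14, limma adjusted p = 0.0528). It passed the threshold with normexp background (-0.77) and with quantile normalization (-0.87), among others. Car2, a carbonic anhydrase, had a difference of 0.56 (SE 0.39), and Cftr, the chloride channel of duct cells, of -0.0076 (SE 0.14).

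The list of factors that make gut and islet endocrine cells also held nutrient sensors of gut endocrine cells, and 14 of its 17 tested genes had a negative difference, with a median of -0.13. None passed the limma threshold, and 4 had an unadjusted p under 0.05, all lower. Neurod1, which drives Cck and Sct cells of the gut as well as islet cells, had a log2 difference of -1.38 (SE 0.26, limma adjusted p = 0.110). With normexp background Neurod1 was called lower, at -0.71. Insm1, a zinc finger factor of endocrine cells, had -0.96 (SE 0.21). Neither gene overlapped between the groups.

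**Figure D5:**
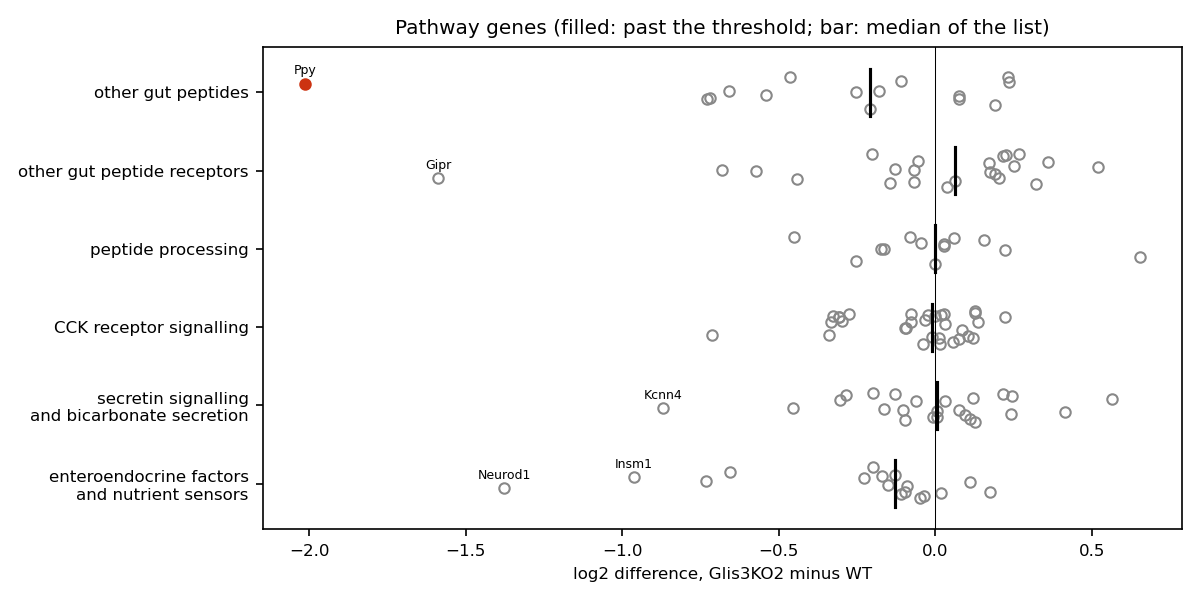
Log2 difference, Glis3KO2 minus WT (x axis), of each tested gene in 6 lists around the gut hormone system (y axis); the filled point passed the threshold, open points did not, and the black bar is the list's median. Ppy, at -2.01, is the only filled point, and Gipr and Neurod1 lie at -1.59 and -1.38.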

How the data were processed

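Total RNA (500 ng per sample) was labelled with Cy3 and hybridised to 1 single-colour Agilent array per sample, per the labels' protocols. Feature Extraction 9.5 from Agilent turned the scans into spot values, per the submitters' processing notes. The deposited spot values are intensities on a linear scale with spatial and multiplicative detrending, per the file headers. They are not scaled between arrays, and the deposited series table holds the same 45018 intensity values for every array. The well above background and outlier flags of 0 or 1 are those of the authors' files.

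The processed signal was divided by its own array's 75th percentile (43379 spots, controls left out) and put on the log2 scale. Outlier spots (56 to 130 on an array) were dropped, spots of a probe were averaged, and no spot was saturated. Genotypes were compared with limma 3.58.1 in R 4.3.3 (lmFit, eBayes, 2-sided, Benjamini-Hochberg adjustment) on 33253 probes well above background on at least 4 arrays. The fit was tested on simulated data. SE values are those of the fit. Accessions matched the RefSeq gene table for 22951 of 25510 probes. Alternatives were normexp background (offset 50), quantile and median scaling, other filters, the series table, eBayes with trend and robust settings, the mean of a gene's probes, a replicate block, and arrays left out. The genes named are the 9 members, the 5 nearest profiles, 15 genes set by role, and from each list up to 4 called genes or, where none was called, the 2 with the largest difference. The members, lists and alternatives were chosen with earlier results of these data known. Summed marker levels add the linear levels (75th percentile of an array = 1). Same-numbered WT and Glis3KO2 samples were not paired, since nothing in the labels ties them. Python 3.11.15 drew the figures. The 4 arrays per genotype limit the precision.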

Additional observations from a re-analysis of the deposited data

Results flagged for a closer look

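In 76 groups of 4 arrays screened, 4 had 1 array whose gap to the nearest other, as a share of the group's range, exceeded Dixon's 95% critical value, and chance flags about 1 group in 20. For Cckbr A_51_P506201, WT replicate 1 at -3.26 stood above the other WT arrays, at -4.63, -4.46 and -4.44 (gap ratio 0.865). For Gnaq, Glis3KO2 replicate 3 at 2.36 stood above 2.17, 2.15 and 2.13 (0.847). For St8sia3, Glis3KO2 replicate 2 at -0.05 stood below 0.26, 0.28 and 0.24 (0.901). For 1600029I14Rik, WT replicate 1 at -4.82 stood below -3.88, -4.01 and -3.95 (0.860). The Cck levels in Glis3KO2, which lay as 1 pair of higher and 1 pair of lower arrays, were not among them.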

How the results depend on the processing

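The log2 difference of the Cck probe A_51_P137322 was positive under every alternative run, but its call was not stable. It ended with no filter on dim probes (4.44), with the replicate block (4.44), with eBayes trend and robust settings (4.44) and without Glis3KO2 replicates 3 and 4 together (4.32), and leaving out single arrays gave 3.99 to 4.91. In these settings 0 of the 11 probes were called by limma, with 4, 4, 5 and 4 at an unadjusted p under 0.05, and leaving out single arrays gave 0 to 1. The 85 called probes (27 higher, 58 lower) became 51 without the filter (32 lower), 142 with trend and robust settings (44 and 98), 15 with the replicate block (7 and 8) and 11 without replicates 3 and 4 (5 and 6). Leaving out single arrays gave 35 to 96 in all, 15 to 25 higher and 20 to 73 lower. Nothing in the labels ties same-numbered samples beyond the number. The correlations of their deviations were 0.13, 0.09, 0.24 and -0.04, and 3 of 4 WT arrays matched best with their own number. Whether same-numbered samples shared more than the number is therefore not settled. The 1 called pathway gene became 5 with normexp, 2 with quantile normalization, 2 with the filter on all 8 arrays, 4 with trend and robust settings, 3 with the mean of a gene's probes, 0 with the block (21 at an unadjusted p under 0.05) and 0 without replicates 3 and 4 (16), and leaving out single arrays gave 1 to 2. Ppy lost its call with the block (-2.01) and without replicates 3 and 4 (-1.74). The cause of these changes was not tested, beyond the fewer samples or more probes tested that the settings themselves bring.

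Signs turned for differences close to 0. Nts was -0.025 with normexp, and leaving out single arrays gave -0.18 to 0.39. Cckbr A_51_P506201 gave -0.38 to 0.14 in that way. Cftr was 0.018 with quantile normalization and 0.019 with median scaling (single arrays left out, -0.081 to 0.092). Cpe was 0.027 with median scaling and 0.011 without replicates 3 and 4 (-0.045 to 0.041). Gnaq was -0.026 without replicates 3 and 4 and -0.028 with the mean of its probes (-0.042 to 0.085), and Pam was -0.036 with the mean of its probes (-0.041 to 0.11). Pcsk2 was 0.12 without replicates 3 and 4, Vipr1 was -0.0059 with normexp (-0.072 to 0.11), and Tpst2 gave -0.10 to 0.0075 with single arrays left out. Dim probes near the scanner floor carry the least certain fold sizes. They are those of Gip, Sctr, Vip and Nts, Cckbr A_51_P506201, Cck A_52_P539124, and Cck A_51_P137322 in WT.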
